A study of Mus musculus with 18 samples.

Results

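Interferon-stimulated genes are transcripts that cells switch on when an interferon binds its receptor, and 36 of them, from transcription factors to antiviral effectors, were followed through small-intestinal crypts of mice. Members were taken by gene symbol, and 33 of the 36 had a probe set with that symbol alone, out of 18193 genes measured. The 3 not measured were Isg15, whose only probe set carried several symbols, Oas1g and Ifi44. Crypts came from mice 2 months old, harvested 2 days after deletion with Ah-cre, an inducible Cre recombinase whose Cyp1a1 promoter is switched on by ligands of the aryl hydrocarbon receptor. The 18 arrays fall into 4 groups: control (4 arrays), E2f TKO, in which E2f1, E2f2 and E2f3 were the targets (5 arrays), Myc KO, in which Myc was the target (4 arrays), and E2f/Myc QKO, here QKO, in which all these genes were the targets (5 arrays). The sources used here do not give the alleles of the controls, or whether they carried Cre or had the inducer. The labels number the samples within a group without tying each to a mouse, so the p-values measure the spread between these samples, which may be technical.

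Interferons act through receptors on the cell surface that activate Janus kinases, and these phosphorylate STAT proteins. Type I and type III interferons lead to a complex that includes STAT2 and IRF9 and binds the interferon-stimulated response element (ISRE) in promoters, while interferon gamma acts on the gamma-activated sequence (GAS). The intestinal epithelium, which faces microbes and viruses in the lumen, keeps a low level of many of these transcripts without infection. The values are deposited log2 signals, so a difference of 1 is a doubling. The level of a probe set depends on its own probes, so levels are compared between arrays and never between genes.

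Promoters are shown first, since sequence was not used to choose the members and most of them moved together across arrays. The 250 bases before the annotated start are from RefSeq on GRCm38.p6, and capitals mark matches to the ISRE core on either strand: GAAA, 2 bases of any kind and GAAA, which reads TTTC, 2 bases and TTTC on the opposite strand. The regions are chr7:104507850-104508099 on the minus strand for Trim30d, chr19:34640639-34640888 on the plus strand for Ifit1, chr11:58199306-58199555 on the plus strand for Igtp, chr7:104465194-104465443 on the minus strand for Trim30a, chr10:128270248-128270497 on the plus strand for Stat2 and chr8:71537473-71537722 on the minus strand for Bst2. Of the members given array by array whose promoters hold a match, they are the 6 with the widest range over the 18 arrays.
Trim30d: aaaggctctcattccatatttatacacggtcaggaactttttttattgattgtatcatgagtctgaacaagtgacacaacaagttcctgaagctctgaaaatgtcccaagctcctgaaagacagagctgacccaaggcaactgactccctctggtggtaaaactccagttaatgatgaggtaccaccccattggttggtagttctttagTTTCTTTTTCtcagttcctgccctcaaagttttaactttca
Ifit1: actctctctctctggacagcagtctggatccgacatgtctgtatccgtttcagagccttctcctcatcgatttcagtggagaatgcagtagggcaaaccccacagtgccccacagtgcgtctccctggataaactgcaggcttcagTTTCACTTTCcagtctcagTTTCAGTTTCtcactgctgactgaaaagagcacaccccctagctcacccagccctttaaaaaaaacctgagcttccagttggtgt
Igtp: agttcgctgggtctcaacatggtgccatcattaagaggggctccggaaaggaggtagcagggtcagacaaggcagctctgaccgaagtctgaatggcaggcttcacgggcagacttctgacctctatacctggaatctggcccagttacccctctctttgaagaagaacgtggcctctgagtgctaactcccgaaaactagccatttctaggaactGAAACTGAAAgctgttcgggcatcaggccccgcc
Trim30a: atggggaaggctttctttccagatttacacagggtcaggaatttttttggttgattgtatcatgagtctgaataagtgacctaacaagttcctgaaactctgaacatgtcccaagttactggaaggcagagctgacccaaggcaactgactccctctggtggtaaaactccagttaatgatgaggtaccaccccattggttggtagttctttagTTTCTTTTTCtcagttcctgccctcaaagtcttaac
Stat2: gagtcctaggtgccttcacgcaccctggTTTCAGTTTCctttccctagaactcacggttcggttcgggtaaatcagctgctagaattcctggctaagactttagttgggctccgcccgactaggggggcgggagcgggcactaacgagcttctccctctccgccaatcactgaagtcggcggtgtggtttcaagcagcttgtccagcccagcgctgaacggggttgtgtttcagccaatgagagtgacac
Bst2: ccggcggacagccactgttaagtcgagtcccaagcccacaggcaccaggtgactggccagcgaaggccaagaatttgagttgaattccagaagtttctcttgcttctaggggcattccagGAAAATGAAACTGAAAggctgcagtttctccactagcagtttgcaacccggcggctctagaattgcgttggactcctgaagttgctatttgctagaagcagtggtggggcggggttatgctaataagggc
In Ifit1 the matches span bases -104 to -95 and -85 to -76 before the start, in Igtp -34 to -25 and in Stat2 -222 to -213. In Bst2 the matches overlap each other, at -130 to -121 and -124 to -115. The promoters of the paralogs Trim30a and Trim30d were identical at 226 of 245 aligned bases (92.2%), and both hold the match TTTCTTTTTC.

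Promoter sequences were at hand for 24 of the 33 members. The ISRE core was present in 13 of those 24 (54.2%), namely Stat2, Ifit1, Ifit3, Oas1a, Oas3, Gbp2, Gbp3, Igtp, Irgm1, Rsad2, Bst2, Trim30a and Trim30d. Over all 27025 genes with a promoter of the same length, 936 (3.46%) held it. The GAS letters TTCNNNGAA, which read the same on both strands, were in 5 of 24 (20.8%; Irf1, Ifit2, Oas1a, Igtp and Bst2) against 8.13% of all promoters. In Bst2 the GAS match shares bases with the first ISRE match. The E2F letters TTTCCCGC, with GCGGGAAA on the other strand, were in 1 of 24 (4.2%; Ifit2) against 1.03%. The Myc E-box CACGTG was in 0 of 24 against 6.86%. These are matches of letters in a short window, and nothing is drawn from them about binding. Not matched to a promoter were Zbp1, Usp18, Dhx58, Oas2, Mx1, Mx2, Iigp1, Rtp4 and Parp14.

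The samples were checked first against the genes that were targeted. Myc signals were 9.69 to 10.66 where Myc was kept (control, E2f TKO) and 7.94 to 8.52 where it was a target (Myc KO, QKO). The E2f3 probe set read 8.62 to 8.96 in control, 8.08 to 8.39 in E2f TKO 1, 3 and 4, and 8.09 to 8.19 in QKO. In Myc KO, where E2f3 was not a target, it read 8.44 to 8.60, also below every control. In the arrays labelled E2f TKO 2 and 5 the E2f3 probe set read 9.35 and 9.10, above every control. Cyp1a1, the gene whose promoter drives the Cre, read 5.05 and 4.91 in these arrays, against 12.66 to 14.09 elsewhere (12.66 to 13.80 in control). These values go against the label of both arrays, so the differences of members that rest on E2f TKO are also given without them below. Against control, E2f3 passed the test in QKO (-0.64, limma adjusted p = 0.0192) but not in E2f TKO with all its arrays (-0.15, limma adjusted p = 0.816). E2f1 and E2f2 did not pass in E2f TKO or QKO against control, and the sources used here do not say whether their probe sets lie inside the deleted parts. Array medians lay between 6.14 and 6.26, and 10 members had a mean below the highest of them, so a level above background is not shown for those.

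The members varied together from array to array. The mean of the 33 members, as a log2 difference from the control mean, was 0.42, -0.25, 0.21 and -0.38 in control 1 to 4. It was 0.68, 0.01, 0.14, -0.12 and -0.09 in E2f TKO 1 to 5, 0.17, 0.17, -0.29 and 1.49 in Myc KO 1 to 4 and 0.20, 0.77, 0.04, -0.03 and 0.31 in QKO 1 to 5. Each group held 1 array above its others, and the 4 groups overlapped: the group means ran from 0.00 to 0.39, with a within-group SD of 0.465. The 3 Trim genes described below weigh on that mean, since without them the group means of the other 30 members were -0.07 in E2f TKO (0.12 with them), 0.08 in QKO (0.26) and 0.47 in Myc KO (0.39). The highest arrays were then control 1 at 0.55, E2f TKO 1 at 0.46, QKO 2 at 0.58 and Myc KO 4 at 1.42. Control 1 had the highest control signal for 26 of 33 members, E2f TKO 1 the highest E2f TKO signal for 25, and QKO 2 the highest QKO signal for 30. Myc KO 4 was the highest Myc KO array for 31 members and the highest of all 18 arrays for 27, and its mean stood 1.32 above the next Myc KO array. Myc KO 3 was the lowest Myc KO array for 28 members and control 4 the lowest control for 24. The median within-group SD of the members was 0.436 against 0.148 for all genes, and 24 members lay above the 90th percentile of all genes (0.292).

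**Figure D1:**
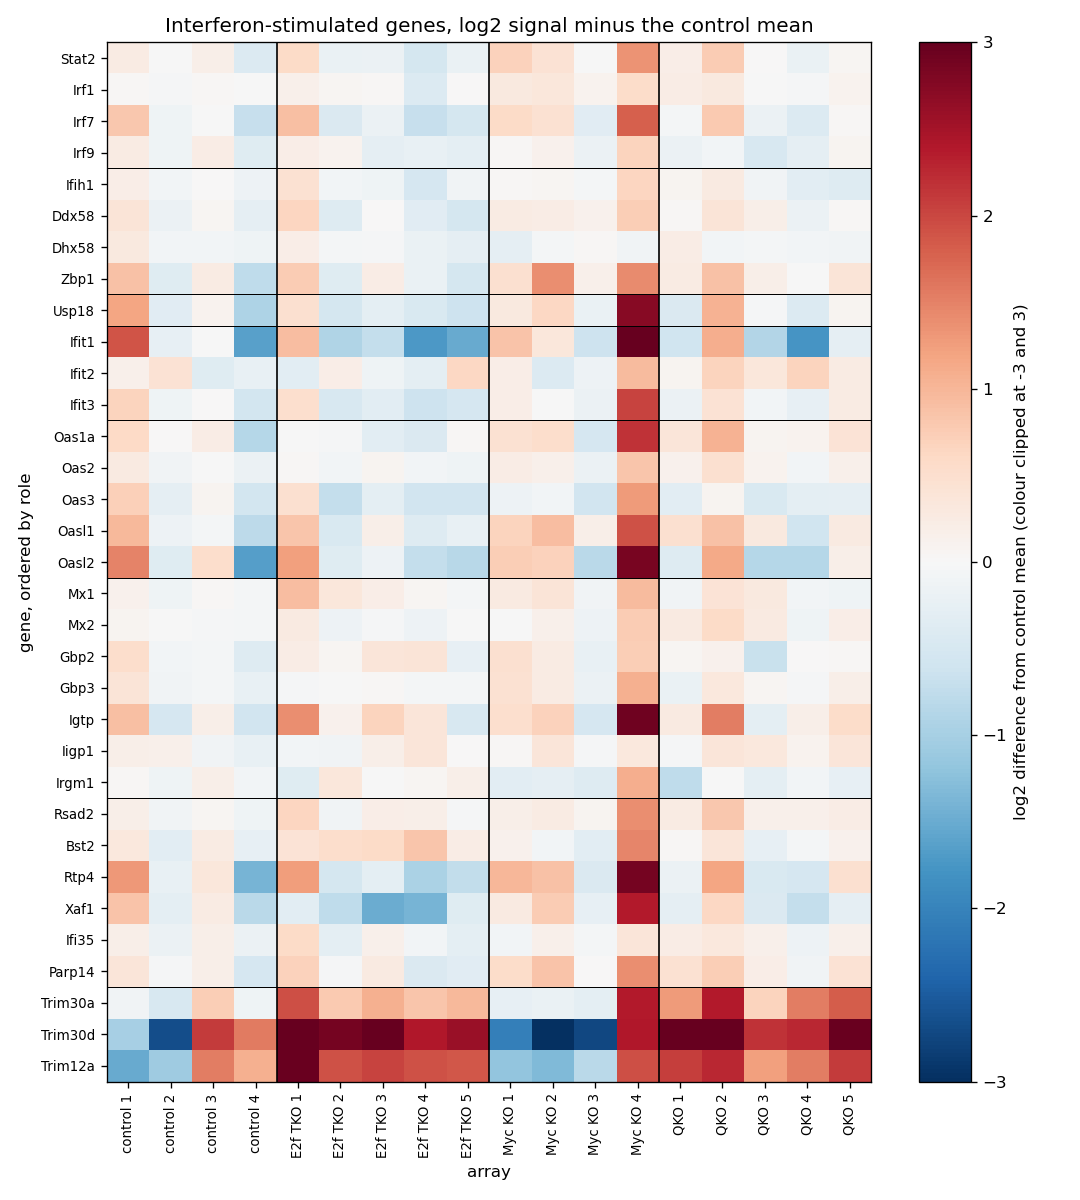
Heat map of the 33 measured members (rows, ordered by role) in 18 arrays (columns, ordered by group), as log2 signal minus the control mean, with colour clipped at -3 and 3. Myc KO 4 was the highest of all arrays for 27 members, and the 3 Trim genes in the bottom rows follow a different pattern across arrays.

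Markers of other cell types also differed between arrays and are given beside this pattern. The mean of 11 measured T cell markers of 12 listed, relative to control, was 0.96, -0.35, -0.42 and -0.18 in control 1 to 4, 1.42, -0.67, 0.31, 0.76 and -0.95 in E2f TKO 1 to 5, 0.74, 0.83, 0.01 and 0.18 in Myc KO 1 to 4 and 0.10, 0.60, 0.26, -0.08 and 0.06 in QKO 1 to 5. Control 1, E2f TKO 1 and QKO 2, the highest arrays of their groups for the interferon-stimulated genes, were also the highest for these markers, whereas Myc KO 4 lay below Myc KO 1 and 2. In Myc KO 4, 10 of the 11 T cell markers were above the control mean, and the mean of 12 macrophage and dendritic cell markers was 0.02. The macrophage and dendritic cell mean ran from -0.36 in E2f TKO 1 to 0.46 in QKO 2, with control 1 at 0.35. The mean of 7 measured B and plasma cell markers of 8 listed ran from -0.71 in control 3 to 1.09 in Myc KO 2, with control 1 at 0.60 and E2f TKO 1 at -0.65, the lowest of its group. Among epithelial cells, the mean of 9 measured enterocyte markers of 10 listed was highest of their groups in control 1 (0.24), E2f TKO 1 (0.78) and QKO 2 (0.24). These arrays were also highest for the members. In Myc KO 4 the enterocyte mean was the lowest of its group (-0.09), but 6 of 9 markers were above the control mean. The enterocyte median in Myc KO 4 was the highest of its group (0.157, against 0.153 in Myc KO 2). The lowest enterocyte mean of all arrays was -0.93 in QKO 4. The mean of 8 crypt stem cell markers was lowest in E2f TKO 1 (-0.76) and highest in QKO 4 (1.07). It lay between -0.15 and 0.07 in control, at 0.13 to 0.47 in Myc KO and at 0.23 or more in QKO. The part of all these markers in the results was not tested. Cd3e, a defining T cell gene, read 7.52 to 8.46 over the 18 arrays, so these crypt preparations held a signal for it, and the mean of 11 general epithelial markers stayed within -0.04 and 0.12. Single markers of that list moved in opposite directions. Cdh1 was lower and Krt18 higher than control in Myc KO and in QKO (limma, adjusted p below 0.05), where 8.31% and 26.9% of all genes passed. Krt20 ran from 9.67 in QKO 4 to 13.09 in E2f TKO 1. In bulk RNA, fewer cells of a type and less RNA per cell cannot be told apart.

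**Figure D2:**
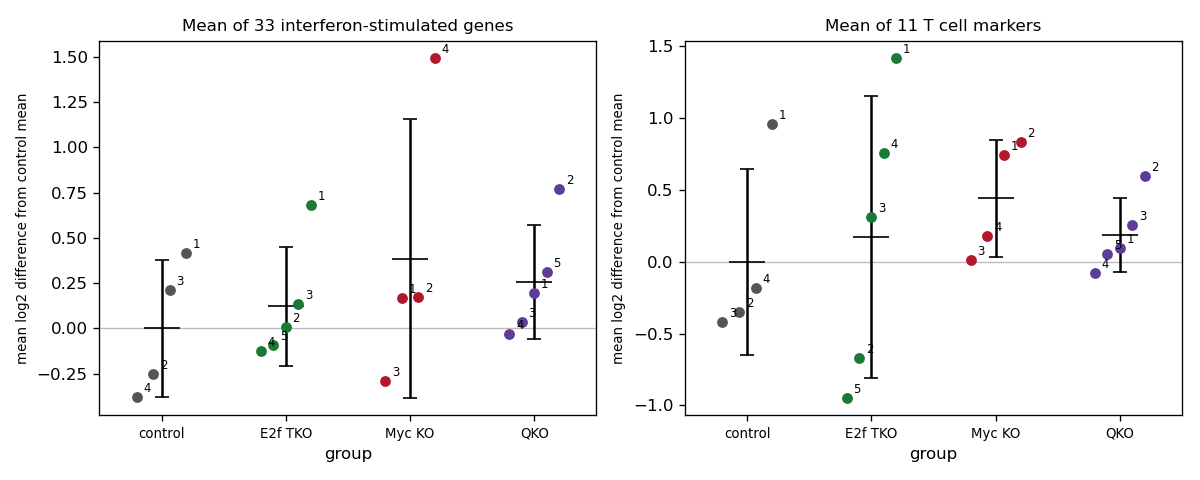
Mean log2 difference from control of the 33 interferon-stimulated genes (left) and of 11 T cell markers (right), 1 point per array numbered by replicate, with bars for the group mean and SD. Myc KO 4 reached 1.49 for the interferon-stimulated genes and 0.18 for the T cell markers, while E2f TKO 1 reached 0.68 and 1.42.

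Among the transcription factors of the pathway, Stat2 and Irf9, partners in the ISRE-binding complex, had their highest signals in Myc KO 4. Stat2 read 6.97, 6.73, 6.92 and 6.31 in control 1 to 4, 7.30, 6.53, 6.55, 6.20 and 6.52 in E2f TKO 1 to 5, 7.42, 7.17, 6.72 and 8.07 in Myc KO 1 to 4 and 6.94, 7.50, 6.75, 6.53 and 6.80 in QKO 1 to 5. Irf9 read 8.35, 7.98, 8.32 and 7.74 in control 1 to 4, 8.29, 8.21, 7.82, 7.88 and 7.82 in E2f TKO 1 to 5, 8.12, 8.22, 7.91 and 8.77 in Myc KO 1 to 4 and 7.93, 8.01, 7.63, 7.84 and 8.17 in QKO 1 to 5. The ranges of all 4 groups overlapped for both genes in comparison with control, and neither passed the test there. Signals of Irf7, which drives the production of type I interferon, were 9.0, 8.04, 8.18 and 7.50 in control 1 to 4, 9.08, 7.74, 7.99, 7.48 and 7.65 in E2f TKO 1 to 5, 8.75, 8.64, 7.85 and 9.97 in Myc KO 1 to 4 and 8.11, 8.97, 8.01, 7.77 and 8.21 in QKO 1 to 5. The high arrays were control 1, E2f TKO 1, Myc KO 4 and QKO 2, so each genotype spanned over 1 log2 unit.

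Irf1, a transcription factor strongly induced by interferon gamma, had the tightest controls of these 4 genes. Its signals were 10.81, 10.75, 10.82 and 10.78 in control 1 to 4, 10.94, 10.85, 10.83, 10.38 and 10.80 in E2f TKO 1 to 5, 11.08, 11.13, 10.90 and 11.34 in Myc KO 1 to 4 and 11.02, 11.09, 10.77, 10.76 and 10.89 in QKO 1 to 5. All Myc KO arrays lay above all controls (10.90 to 11.34 against 10.75 to 10.82), with a difference of 0.32 ± 0.11 (SE) that missed the threshold (limma, adjusted p = 0.0902). E2f TKO 4 stood below every other array, at 10.38.

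The sensors and the ISG15 system followed the same arrays. Zbp1, a sensor of Z-form nucleic acid, read 8.12, 6.87, 7.49 and 6.48 in control 1 to 4, 8.0, 6.88, 7.47, 7.03 and 6.71 in E2f TKO 1 to 5, 7.72, 8.64, 7.39 and 8.65 in Myc KO 1 to 4 and 7.49, 8.11, 7.43, 7.23 and 7.63 in QKO 1 to 5. Myc KO 2 and 4 were the highest arrays and control 4 the lowest. The RNA sensors Ifih1 and Ddx58 ranged from 8.93 to 10.08 and from 8.81 to 10.08, each highest in Myc KO 4. Dhx58, a regulator of both, spanned 5.83 to 6.39 with the probe set used, with its highest value in control 1. Its other probe sets were highest in Myc KO 4, at 7.93 and 6.47, against at most 6.60 and 5.44 elsewhere, so the probe sets of Dhx58 disagree. Usp18, which removes ISG15 from proteins and restrains type I interferon signalling, read 7.27, 5.75, 6.19 and 5.16 in control 1 to 4, 6.58, 5.57, 5.81, 5.65 and 5.47 in E2f TKO 1 to 5, 6.39, 6.71, 5.89 and 8.82 in Myc KO 1 to 4 and 5.66, 7.13, 6.06, 5.67 and 6.17 in QKO 1 to 5. The highest array after Myc KO 4 was control 1.

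The Ifit family, which binds foreign RNA, held the widest swing outside the Trim genes. Ifit1 read 7.92, 5.80, 6.02 and 4.41 in control 1 to 4, 6.97, 5.13, 5.33, 4.32 and 4.51 in E2f TKO 1 to 5, 6.89, 6.38, 5.43 and 9.08 in Myc KO 1 to 4 and 5.44, 7.13, 5.17, 4.26 and 5.78 in QKO 1 to 5. Within the controls alone it ran from 4.41 to 7.92, a wider span than any difference between its group means. Ifit2 gave signals of 5.07, 5.36, 4.54 and 4.70 in control 1 to 4, 4.61, 5.11, 4.78, 4.61 and 5.53 in E2f TKO 1 to 5, 5.11, 4.50, 4.76 and 5.87 in Myc KO 1 to 4 and 5.0, 5.59, 5.25, 5.60 and 5.16 in QKO 1 to 5. Every value lay below the array medians, and the groups overlapped. Ifit3 ranged from 5.56 in E2f TKO 4 to 8.19 in Myc KO 4.

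The Oas family encodes oligoadenylate synthetases, which activate RNase L, and related proteins. Oasl2 read 8.45, 6.60, 7.49 and 5.31 in control 1 to 4, 8.20, 6.60, 6.81, 6.25 and 6.13 in E2f TKO 1 to 5, 7.70, 7.64, 6.15 and 9.80 in Myc KO 1 to 4 and 6.58, 8.09, 6.11, 6.11 and 7.14 in QKO 1 to 5. The controls included both the lowest array and the highest outside Myc KO 4. Oas1a spanned 8.71 to 11.72, Oas2 6.85 to 7.86, Oas3 6.05 to 8.05 and Oasl1 7.15 to 9.84, each highest in Myc KO 4. All 5 QKO arrays of Oas1a (9.65 to 10.59) lay above all 5 E2f TKO arrays (9.12 to 9.60), though the difference of 0.55 ± 0.36 (SE) did not pass (limma, adjusted p = 0.308).

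The GTPases restrict viruses (Mx1 and Mx2) and intracellular bacteria and parasites (the Gbp and Irg families). Igtp read 9.45, 8.04, 8.70 and 7.96 in control 1 to 4, 9.94, 8.67, 9.20, 8.89 and 8.05 in E2f TKO 1 to 5, 9.04, 9.23, 8.02 and 11.45 in Myc KO 1 to 4 and 8.80, 10.07, 8.23, 8.72 and 9.08 in QKO 1 to 5. Myc KO 4, QKO 2 and E2f TKO 1 were high, and Myc KO 3 was as low as the lowest controls. Mx1 gave signals of 5.58, 5.32, 5.48 and 5.39 in control 1 to 4, 6.37, 5.79, 5.65, 5.50 and 5.38 in E2f TKO 1 to 5, 5.70, 5.84, 5.34 and 6.40 in Myc KO 1 to 4 and 5.33, 5.85, 5.73, 5.37 and 5.32 in QKO 1 to 5. Mx1 and Mx2 are listed as transcribed pseudogenes in the reference annotation. Mx2 read 6.32, 6.23, 6.21 and 6.18 in control 1 to 4, 6.51, 6.09, 6.19, 6.07 and 6.23 in E2f TKO 1 to 5, 6.23, 6.39, 6.07 and 6.99 in Myc KO 1 to 4 and 6.50, 6.80, 6.50, 6.11 and 6.43 in QKO 1 to 5. Gbp2 signals were 5.47, 4.85, 4.89 and 4.54 in control 1 to 4, 5.17, 4.99, 5.31, 5.32 and 4.69 in E2f TKO 1 to 5, 5.41, 5.19, 4.71 and 5.67 in Myc KO 1 to 4 and 5.0, 5.07, 4.27, 4.96 and 4.98 in QKO 1 to 5. All 3 were highest in Myc KO 4, followed by E2f TKO 1 for Mx1, QKO 2 for Mx2 and control 1 for Gbp2. Gbp3 spanned 4.30 to 5.58, Iigp1 4.69 to 5.28 and Irgm1 7.82 to 9.68.

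Of the remaining effectors, Rtp4, a receptor transporter protein with antiviral activity, had the widest range. Rtp4 read 8.90, 7.38, 7.95 and 6.22 in control 1 to 4, 8.86, 7.08, 7.31, 6.67 and 6.88 in E2f TKO 1 to 5, 8.60, 8.49, 7.19 and 10.48 in Myc KO 1 to 4 and 7.44, 8.80, 7.14, 7.11 and 8.08 in QKO 1 to 5. Its order of arrays within each group followed that of Oasl2 at the top, with control 1, E2f TKO 1, Myc KO 4 and QKO 2 highest. Parp14, an ADP-ribosyltransferase, read 8.70, 8.30, 8.52 and 7.84 in control 1 to 4, 9.02, 8.30, 8.60, 7.92 and 8.01 in E2f TKO 1 to 5, 8.89, 9.20, 8.35 and 9.74 in Myc KO 1 to 4 and 8.79, 9.09, 8.54, 8.22 and 8.78 in QKO 1 to 5. Bst2 encodes tetherin, which holds budding virus at the cell surface, and read 7.69, 7.06, 7.61 and 7.11 in control 1 to 4, 7.79, 7.89, 7.95, 8.20 and 7.59 in E2f TKO 1 to 5, 7.50, 7.28, 7.06 and 8.84 in Myc KO 1 to 4 and 7.40, 7.74, 7.12, 7.31 and 7.50 in QKO 1 to 5. E2f TKO arrays of Bst2 lay at 7.59 to 8.20 and overlapped every other group. Rsad2, the antiviral enzyme viperin, spanned 6.39 to 7.93, and Ifi35 spanned 11.04 to 11.92.

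**Figure D3:**
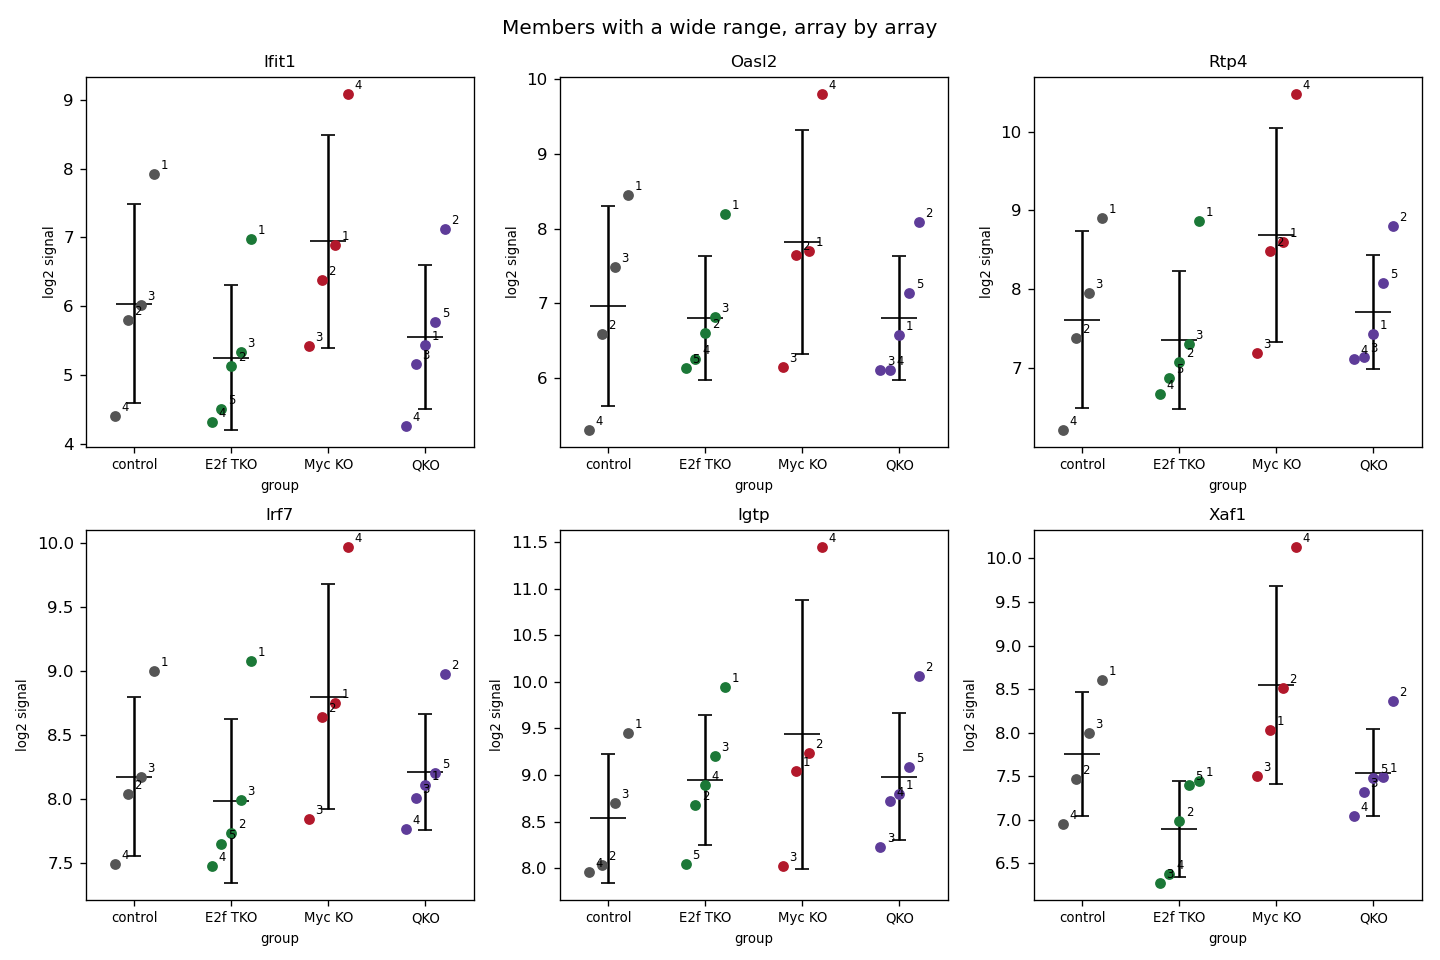
Log2 signals of Ifit1, Oasl2, Rtp4, Irf7, Igtp and Xaf1, 1 point per array numbered by replicate, with bars for the group mean and SD. Control 1, Myc KO 4 and QKO 2 are the highest arrays of their groups in each panel, and the groups overlap except Xaf1 in Myc KO (from 7.50) and E2f TKO (to 7.44).

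The Trim family members broke from this pattern. Trim30a, Trim30d and Trim12a encode tripartite-motif proteins, relatives of antiviral restriction factors and of regulators of innate signalling. Trim30d read 6.0, 4.34, 9.10 and 8.57 in control 1 to 4, 10.84, 9.87, 10.05, 9.41 and 9.59 in E2f TKO 1 to 5, 4.94, 3.91, 4.26 and 9.40 in Myc KO 1 to 4 and 10.22, 10.34, 9.16, 9.27 and 9.96 in QKO 1 to 5. It lay between 3.91 and 6.0 in control 1 and 2 and Myc KO 1, 2 and 3, and between 8.57 and 10.84 in the other 13 arrays, with no value in between. Trim12a read 3.03, 3.48, 6.10 and 5.61 in control 1 to 4, 7.53, 6.47, 6.58, 6.46 and 6.41 in E2f TKO 1 to 5, 3.38, 3.24, 3.75 and 6.48 in Myc KO 1 to 4 and 6.62, 6.82, 5.78, 6.10 and 6.65 in QKO 1 to 5. The same 5 arrays were low (3.03 to 3.75) and the other 13 high (5.61 to 7.53). A second Trim12a probe set did not show this split and read 4.43 to 4.93 over the 18 arrays, so the probe sets of Trim12a disagree, whereas the second probe sets of Trim30a and Trim30d gave differences of the same sign as the first in every comparison with a called Trim gene. Trim30a read 6.10, 5.74, 6.95 and 6.09 in control 1 to 4, 8.16, 7.0, 7.28, 7.06 and 7.18 in E2f TKO 1 to 5, 5.97, 6.02, 5.93 and 8.59 in Myc KO 1 to 4 and 7.51, 8.60, 6.89, 7.76 and 8.03 in QKO 1 to 5. It lay between 5.74 and 6.10 in those 5 arrays and in control 4, and at 6.89 or more elsewhere.

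In the reference order on chromosome 7 the measured genes run Trim6, Trim34a, Trim5, Trim12a, Trim12c, Trim30a, Trim30d. Trim34a, an interferon-inducible neighbour that is no member, was also low in the same 5 arrays (5.30 to 5.85) and high in the other 13 (6.56 to 7.96). Trim12c, which lies between Trim12a and Trim30a, ran from 6.98 to 8.06 and did not follow them, with control 1, 2 and Myc KO 1 to 3 at 7.66 to 7.98. Trim34a was higher in QKO than control by 1.37 ± 0.42 (SE; limma, adjusted p = 0.0238) and did not pass in E2f TKO (1.19 ± 0.42; limma, adjusted p = 0.179).

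Trim5 and Trim6 did not show the split into 5 and 13 arrays. Both read below the array medians in every array, so a level above background is not shown for them. Trim5 read 4.26, 4.03, 4.53 and 4.33 in control 1 to 4, 5.16, 4.95, 4.84, 4.72 and 4.84 in E2f TKO 1 to 5, 4.59, 4.07, 4.15 and 4.80 in Myc KO 1 to 4 and 4.80, 4.94, 4.71, 4.88 and 5.03 in QKO 1 to 5. Its lowest arrays were control 1 and 2 and Myc KO 2 and 3 (4.03 to 4.26), all on the low side for Trim30d, but Myc KO 1 lay above control 3 and 4. Trim5 was higher than control in E2f TKO (0.62 ± 0.14, SE; limma, adjusted p = 0.0186) and in QKO (0.59 ± 0.14; limma, adjusted p = 0.00472), and both groups lay above all controls. Trim6 read 4.29, 4.02, 4.36 and 3.95 in control 1 to 4, 4.63, 4.49, 5.0, 4.59 and 4.39 in E2f TKO 1 to 5, 4.24, 4.81, 4.52 and 4.68 in Myc KO 1 to 4 and 5.21, 5.20, 5.44, 5.42 and 5.19 in QKO 1 to 5. It was higher in QKO than control (1.14 ± 0.13; limma, adjusted p = 1.44e-05) and missed the threshold in E2f TKO (0.46 ± 0.13; limma, adjusted p = 0.0691). When the arrays labelled E2f TKO 2 and 5 were both dropped, Trim5 (0.62; limma, adjusted p = 0.0315) and Trim6 (0.58; limma, adjusted p = 0.0209) were higher in E2f TKO than control.

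For Trim30a, Trim30d, Trim12a and Trim34a, low and high arrays occur together in the control and Myc KO groups. All E2f TKO and QKO arrays are on the high side, among them the arrays labelled E2f TKO 2 and 5 (Trim30d at 9.87 and 9.59), whose E2f3 and Cyp1a1 signals go against their label. These genes are related in sequence, and whether their probe sets share transcripts was not tested, so their separate values are uncertain. What sets the 5 arrays apart was not tested.

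**Figure D4:**
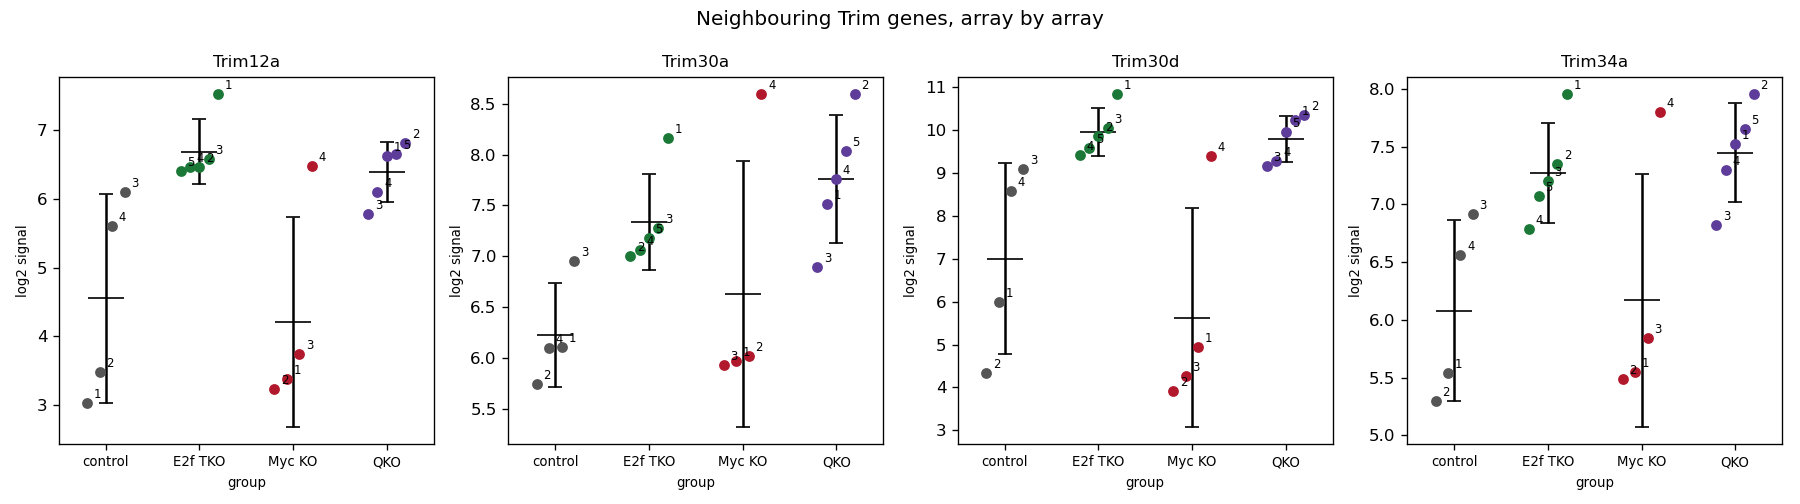
Log2 signals of Trim12a, Trim30a, Trim30d and the neighbouring Trim34a, 1 point per array numbered by replicate, with bars for the group mean and SD. Trim30d was at 3.91 to 6.0 in control 1 and 2 and Myc KO 1 to 3 and at 8.57 to 10.84 in the other 13 arrays.

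The effect of losing E2f1 to E2f3 was asked by setting E2f TKO against control. The median difference of the members was -0.02, against -0.00 over all genes, with 13 members higher and 20 lower. No member passed the test (limma, adjusted p below 0.05 by Benjamini-Hochberg over 18193 genes), against 2.90% of all genes, while 3 of 33 had an unadjusted p below 0.05, against 14.0%. Those 3 were Trim12a (2.13 ± 0.64, SE; limma, adjusted p = 0.0900), Trim30d (2.95 ± 0.98; limma, adjusted p = 0.140) and Trim30a (1.12 ± 0.47; limma, adjusted p = 0.278). They were also the 3 members of 33 whose groups did not overlap, against 5.43% of all genes. Trim12a passed without control 3 (2.65) and without Myc KO 4 (2.13), and Trim30d passed without Myc KO 4 (2.95), which enters through the shared spread. The second Trim12a probe set differed by 0.13 ± 0.09 (SE) in a fit of every probe set (limma, adjusted p = 0.620). With the arrays labelled E2f TKO 2 and 5 dropped, 0 members passed, against 7.27% of all genes in that fit, and the median difference was 0.01. Trim12a then differed by 2.3 (limma, adjusted p = 0.0824), Trim30d by 3.09 (limma, adjusted p = 0.132) and Trim30a by 1.28 (limma, adjusted p = 0.199).

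The effect of losing Myc was asked by setting Myc KO against control. The median difference was 0.38, against 0.02 over all genes, with 30 members higher and 3 lower. None of the 33 passed (limma), against 8.31% of all genes, and 5 had an unadjusted p below 0.05, against 23.8%. Those 5 were Irf1, Parp14 (0.71 ± 0.28, SE; limma, adjusted p = 0.129), Zbp1 (0.86 ± 0.35; limma, adjusted p = 0.146), Oasl1 (0.92 ± 0.40; limma, adjusted p = 0.167) and Stat2 (0.61 ± 0.27; limma, adjusted p = 0.169). Irf1 was the 1 member whose groups did not overlap, against 22.4% of all genes. It passed when E2f TKO 4, its low array, was left out of the shared spread (0.32). Without Myc KO 4 the median difference was 0.16 and 0 members passed.

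**Figure D5:**
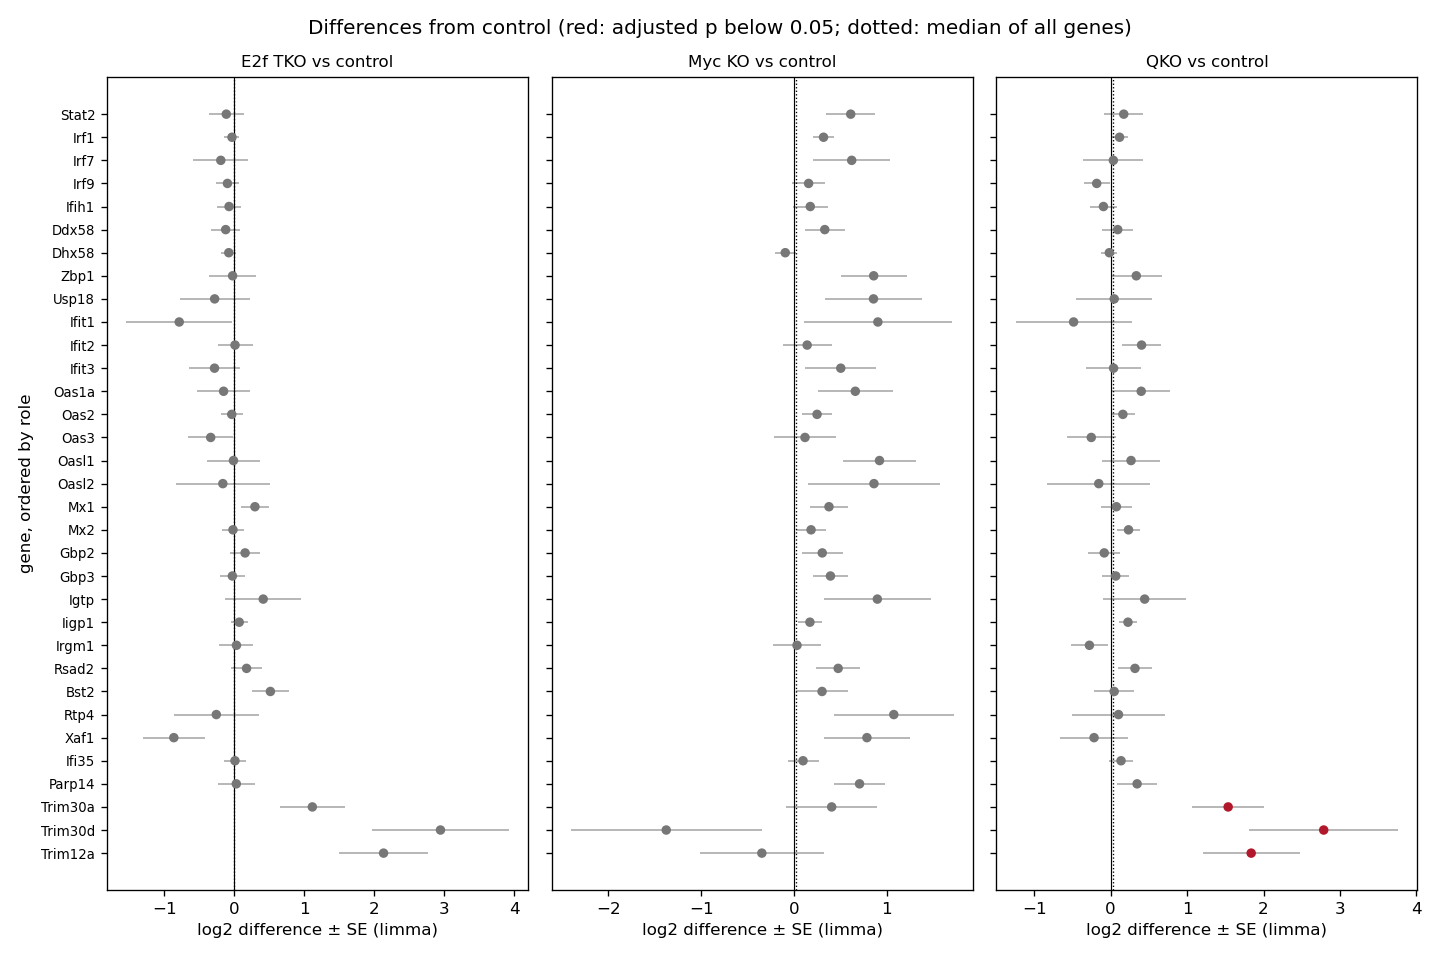
Log2 difference from control with its standard error (limma) for the 33 members, ordered by role, in E2f TKO, Myc KO and QKO. Red points pass adjusted p below 0.05: none in E2f TKO or Myc KO, and Trim30a, Trim30d and Trim12a in QKO, and the dotted line is the median of all genes.

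Loss of Myc together with E2f1 to E2f3 was set against control in the QKO arrays. The median difference was 0.10, against 0.03 over all genes, with 24 members higher and 9 lower. The 3 Trim genes rose and no member fell, so 3 of 33 passed, against 26.9% of all genes in either direction and 14.3% higher, and the same 3 had an unadjusted p below 0.05, against 37.9%. Trim30a rose by 1.54 ± 0.47 (SE; limma, adjusted p = 0.0215), Trim12a by 1.84 ± 0.64 (limma, adjusted p = 0.0401) and Trim30d by 2.79 ± 0.98 (limma, adjusted p = 0.0421). The second Trim12a probe set gave a smaller difference, 0.27 ± 0.09, in a fit of every probe set (limma, adjusted p = 0.0380). In that fit another Ifi35 probe set was also higher in QKO (0.48 ± 0.16, limma adjusted p = 0.0309). The Ifi35 probe set used differed by 0.14 (limma adjusted p = 0.564) and a further one by 0.37 (limma adjusted p = 0.111). Only in Trim30d did the groups not overlap (9.16 to 10.34 against 4.34 to 9.10), 1 of 33 against 26.2% of all genes. Several calls depended on single arrays. The call of Trim30a was lost without control 2 (1.38), control 4 (1.49) or QKO 2 (1.33). That of Trim12a was lost without control 1 (1.33), control 2 (1.48) or QKO 1, 2, 4 or 5 (1.73 to 1.91). That of Trim30d was lost without control 1 (2.45), control 2 (1.90), E2f TKO 3 (2.79) or any of the 5 QKO arrays (2.65 to 2.94), and on leaving out both arrays with high E2f3 (2.79; limma, adjusted p = 0.0519).

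The effect of losing Myc on top of E2f1 to E2f3 was asked by setting QKO against E2f TKO, where 0 of 33 members passed (limma), against 17.0% of all genes, and 0 had an unadjusted p below 0.05, against 31.9%. The median difference was 0.15, against 0.04. The smallest p-values were those of Bst2 (-0.47 ± 0.25, SE; limma, adjusted p = 0.205), Mx2 (0.25 ± 0.15; limma, adjusted p = 0.251) and Ifit2 (0.39 ± 0.24; limma, adjusted p = 0.268). Oas1a, given above, was the 1 member whose groups did not overlap, against 9.22%. Bst2 passed without Myc KO 4 in the shared spread (-0.47). Without the arrays labelled E2f TKO 2 and 5 the median difference was 0.03 and 0 members passed, against 11.8% of all genes in that fit. Bst2 then differed by -0.57 (limma, adjusted p = 0.237), Mx2 by 0.21 (limma, adjusted p = 0.474) and Ifit2 by 0.65 (limma, adjusted p = 0.102).

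QKO against Myc KO asked what losing E2f1 to E2f3 adds to loss of Myc. Trim30d was higher in QKO by 4.16 ± 0.98 (SE; limma, adjusted p = 0.0132) and Trim12a by 2.18 ± 0.64 (limma, adjusted p = 0.0435), so 2 of 33 passed, against 7.68% of all genes in either direction and 4.60% higher, and 4 had an unadjusted p below 0.05, against 20.7%. The median of the members was -0.31, against 0.01, with 8 higher and 25 lower, and without Myc KO 4 it was -0.10. No member had groups that did not overlap, against 13.7%, and Myc KO 4 lay within the QKO range for Trim30d, at 9.40. The second Trim12a probe set differed by 0.15 ± 0.09 in a fit of every probe set (limma, adjusted p = 0.399). Trim30d no longer passed with Myc KO 2 left out (3.59), nor with Myc KO 3 left out (3.71). The call of Trim12a was lost without E2f TKO 3, 4 or 5 (2.18), Myc KO 1 (1.91), Myc KO 2 (1.86), Myc KO 3 (2.03) or any of the 5 QKO arrays (2.08 to 2.34).

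The single losses were compared directly as Myc KO against E2f TKO, where 4 of 33 members passed, against 14.0% of all genes, and 15 had an unadjusted p below 0.05, against 28.8%. Xaf1, which opposes an inhibitor of caspases, read 8.61, 7.47, 8.0 and 6.96 in control 1 to 4, 7.44, 6.99, 6.28, 6.37 and 7.41 in E2f TKO 1 to 5, 8.03, 8.52, 7.50 and 10.13 in Myc KO 1 to 4 and 7.49, 8.37, 7.32, 7.05 and 7.48 in QKO 1 to 5. All Myc KO arrays (7.50 to 10.13) lay above all E2f TKO arrays (6.28 to 7.44), and Xaf1 was higher in Myc KO by 1.65 ± 0.44 (SE; limma, adjusted p = 0.0201). Irf1 was higher by 0.35 ± 0.11 (limma, adjusted p = 0.0373). Trim30d was lower in Myc KO (-4.32 ± 0.98; limma, adjusted p = 0.00711), as was Trim12a (-2.48 ± 0.64; limma, adjusted p = 0.0154), so that 2 were higher, against 6.16% of all genes, and 2 lower, against 7.87%. Xaf1 and Trim30d were the 2 members whose groups did not overlap, against 12.6%. The median difference of the members was 0.35, against 0.02, with 28 higher and 5 lower, and without Myc KO 4 it was 0.09. With the arrays labelled E2f TKO 2 and 5 both dropped, the median was 0.25 and 3 members passed, against 12.5% of all genes in that fit. They were Xaf1 (1.85; limma, adjusted p = 0.0294), Trim30d (-4.47; limma, adjusted p = 0.0202) and Trim12a (-2.65; limma, adjusted p = 0.0322).

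These 4 calls did not rest on the same arrays. Xaf1 was lost without E2f TKO 3 (1.49) or Myc KO 4 (1.12). Its second probe set ran the other way, with 6.72 to 7.06 in E2f TKO 1, 3 and 4 and QKO 4 and 5 against 4.91 to 5.18 in the other arrays, and with the mean of both the difference was 0.25 (limma, adjusted p = 0.591). Irf1 was lost without E2f TKO 3 (0.37), E2f TKO 4 (0.25), E2f TKO 5 (0.36), Myc KO 1 (0.36), Myc KO 2 (0.34) or Myc KO 4 (0.28), and when the 2 arrays with high E2f3 were both left out (0.39; limma, adjusted p = 0.0529). Trim12a no longer passed with Myc KO 1 left out (-2.20), nor with Myc KO 2 left out (-2.15), and its second probe set differed by -0.01 ± 0.09 in a fit of every probe set (limma, adjusted p = 0.959). In that fit another Dhx58 probe set was higher in Myc KO (1.09 ± 0.30, limma adjusted p = 0.0217). So was another Ddx58 probe set (0.445 ± 0.14, limma adjusted p = 0.0344). The probe sets used for Dhx58 (-0.02, limma adjusted p = 0.937) and Ddx58 (0.453, limma adjusted p = 0.139) did not pass. Without E2f TKO 1, the E2f TKO array with the highest mean, 11 members passed, against 21.8% of all genes in that fit, adding Stat2, Irf7, Ddx58, Zbp1, Oasl1, Rtp4 and Parp14. Without Myc KO 3, 9 passed, against 10.4% of all genes, adding Stat2, Zbp1, Oas1a, Gbp3 and Parp14.

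Whether the joint loss differed from the sum of the single losses was tested as an interaction on the log2 scale, where no member passed (limma), against 0.0550% of all genes, and 1 had an unadjusted p below 0.05, against 6.34%. That member was Mx1 (-0.60 ± 0.28, SE; limma, adjusted p = 0.778). Bst2 (-0.77 ± 0.38; limma, adjusted p = 0.798) and Gbp2 (-0.55 ± 0.30; limma, adjusted p = 0.844) came next. The median interaction was -0.25 over the members and 0.01 over all genes, and without Myc KO 4 it was 0.01 over the members. With the arrays labelled E2f TKO 2 and 5 dropped the median was -0.30 and 0 members passed, with Mx1 at -0.70 (limma, adjusted p = 0.479), Bst2 at -0.87 (limma, adjusted p = 0.512) and Gbp2 at -0.72 (limma, adjusted p = 0.486). The comparisons with control share their 4 control arrays, as do the pairs of knockout comparisons their knockout arrays.

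Upstream of the members, 10 of 19 interferon ligands, 6 of 6 receptor subunits and 8 of 9 signalling genes were measured. Of the ligands, 0 passed in E2f TKO or Myc KO against control (limma), and in QKO Ifna2 was higher by 0.35 ± 0.11 (SE; limma, adjusted p = 0.0288) and Ifna5 was lower (-0.39 ± 0.13; limma, adjusted p = 0.0305), with group means of 5.51 and 4.62 in QKO. Ifna2 and Ifna5 read below the array medians in every array, so a level above background is not shown for them. The mean of the ligands stayed between -0.08 and 0.16 in every array, and was -0.00 in Myc KO 4. Both subunits of the type I receptor were higher in QKO than control, Ifnar1 by 0.26 ± 0.08 (limma, adjusted p = 0.0169) and Ifnar2 by 0.74 ± 0.23 (limma, adjusted p = 0.0247), and the other 4 receptor genes did not pass. Ifnar2 was also higher in E2f TKO than control once E2f TKO 2 and 5 were dropped (0.85; limma, adjusted p = 0.0217). Jak1, the kinase shared by these receptors, was higher than control in Myc KO (0.28 ± 0.08; limma, adjusted p = 0.0314) and in QKO (0.25 ± 0.07; limma, adjusted p = 0.0158). Of the feedback inhibitors, Socs3 was higher than control in Myc KO (0.64 ± 0.19; limma, adjusted p = 0.0398) and Socs1 in QKO (0.33 ± 0.08; limma, adjusted p = 0.00500). Among 15 of 18 nucleic acid sensing genes measured, 0 passed in E2f TKO, 1 in Myc KO (Rnaseh2a, lower) and 3 in QKO (Rnaseh2b and Ikbke higher, Aim2 lower). The shares of all genes that passed, in either direction, were 2.90%, 8.31% and 26.9%. Aim2 read below the array medians in every array, so a level above background is not shown for it.

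Further interferon-induced genes that are not among the 36 were read from a list of 52, of which 48 were measured. In E2f TKO 0 were higher and 3 lower than control, in Myc KO 3 higher and 1 lower, and in QKO 4 higher and 4 lower. Of all genes, 2.90%, 8.31% and 26.9% passed in these comparisons, in either direction. The genes lower in E2f TKO were Psmb9, an immunoproteasome subunit (-0.88 ± 0.12, SE; limma, adjusted p = 0.000532), Tap1, the peptide transporter of antigen presentation (-1.66 ± 0.25; limma, adjusted p = 0.000812), and Tor3a. With E2f TKO 2 and 5 dropped, the differences were -0.77 for Psmb9 (limma, adjusted p = 0.00323), -1.54 for Tap1 (limma, adjusted p = 0.00445) and -0.66 for Tor3a (limma, adjusted p = 0.00680). The same 3 genes were also lower in QKO than control, where Psmb9 differed by -0.74 ± 0.12 (limma, adjusted p = 0.000368), Tor3a by -0.59 ± 0.12 (limma, adjusted p = 0.00208) and Tap1 by -0.71 ± 0.25 (limma, adjusted p = 0.0402). The fourth gene lower in QKO was Ifitm3 (-1.40 ± 0.29; limma, adjusted p = 0.00180), and those higher were Trim34a, given above, Samd9l (0.96 ± 0.19; limma, adjusted p = 0.00166), Gbp7 (0.57 ± 0.18; limma, adjusted p = 0.0245) and Daxx (0.23 ± 0.08; limma, adjusted p = 0.0461). In Myc KO, Ifitm3, which blocks viral entry, was lower (-1.45 ± 0.30; limma, adjusted p = 0.00827), while Gbp7 (0.80 ± 0.19; limma, adjusted p = 0.0160), Samd9l (0.78 ± 0.20; limma, adjusted p = 0.0263) and Nlrc5 (0.83 ± 0.24; limma, adjusted p = 0.0382) were higher. Nlrc5 read below the array medians in every array, so a level above background is not shown for it. The mean of the 48 genes, relative to control, was 0.73 in Myc KO 4, 0.36 in QKO 2, 0.31 in E2f TKO 1 and 0.22 in control 1, the same 4 arrays that were highest of their groups for the members. The same shares of all genes, in either direction, apply to the ligands, receptor subunits and signalling genes. Nothing is drawn about any of these lists from its counts.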

How the data were processed

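The deposited values are log2 signals of 45101 probe sets in 18 arrays of biotin-labelled total RNA, the scale being read from the values (array medians 6.14 to 6.26). The sources used here do not give the summary or the normalization that the authors used. Of the probe sets, 34945 carry 1 gene symbol in the platform annotation, 932 several and 9160 none (not used for genes), and 64 are controls. For each of 18193 genes the probe set with the highest mean over all arrays was kept. Group means were fitted in all 18 arrays with limma 3.58.1 (R 4.3.3; lmFit, contrasts.fit and eBayes), two-sided, with Benjamini-Hochberg adjustment over all genes and a threshold of 0.05, for 6 pairwise comparisons and an interaction. The procedure was tested on simulated data.

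The members and the other lists were chosen with earlier results of these data known, and they get counts and medians, with no test of a list. Members given array by array were the transcription factors, those past the test in a comparison (or the 3 with the smallest p where none passed) and the 8 with the widest range; of the other genes of the pathway, those past the test against control are named, and those past it between knockout groups are not. Same-numbered arrays of different groups correlated between -0.23 and 0.367 in their deviations from group means over 2000 probe sets. Differently numbered arrays were not compared, so this range cannot show whether the numbers pair arrays. The labels do not tie the numbers to mice, and they were not taken as pairs. The alternatives were quantile normalization, median centring, a filter on level, other rules for probe sets, a fit of the compared groups alone, a block for the replicate number, a robust eBayes with a trend, array weights, Xist as a covariate (the labels give no sex or batch), leaving out the arrays labelled E2f TKO 2 and 5 (also, chosen after seeing the data, for genes that are not members), and leaving out each array. Xist read 12.02 to 13.40 in control 3, E2f TKO 1 and 4 and QKO 4 and 5, and 6.44 to 6.96 in the other arrays. The arrays with low Xist include every Myc KO array, all arrays low for Trim30d and some that are high for it. Promoters are RefSeq's on GRCm38.p6, matched by the gene identifier of each member's probe set. The number of arrays limits the precision.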

Additional observations from a re-analysis of the deposited data

Results flagged for a closer look

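Of 136 groups of 4 or 5 arrays checked, 132 were for single members and 4 for the mean of all members. In 14, all for single members, an array's gap to its nearest neighbour exceeded Dixon's 95% critical value for the group's range. Of these 14 arrays, 12 lay above the others. Chance marks about 1 in 20 independent groups. The groups checked reuse the same arrays and the members varied together, so the 14 cannot be set against that share. The array standing out was Myc KO 4 in 6 cases: Ifih1 at 10.08 (others 9.38 to 9.5), Ifit3 at 8.19 (6.0 to 6.37), Irgm1 at 9.68 (8.20 to 8.32), Rsad2 at 7.93 (6.60 to 6.77), Trim30a at 8.59 (5.93 to 6.02) and Trim12a at 6.48 (3.24 to 3.75). E2f TKO 1 stood out in 3, with Ifit3 at 6.67 (5.56 to 5.87), Trim30a at 8.16 (7.0 to 7.28) and Trim12a at 7.53 (6.41 to 6.58). The others were Irf1 in E2f TKO 4 at 10.38 (10.80 to 10.94), Dhx58 in control 1 at 6.39 (5.99 to 6.03) and in QKO 1 at 6.33 (6.01 to 6.06), Rsad2 in QKO 2 at 7.33 (6.68 to 6.77) and Gbp2 in QKO 3 at 4.27 (4.96 to 5.07).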

How the results depend on the processing

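No member's difference past the test changed direction under the alternatives in which single genes were followed. The fit of every probe set entered as counts only. In it the second Xaf1 probe set ran the other way in Myc KO against E2f TKO (-1.15 ± 0.45, SE; limma, adjusted p = 0.0923). Leaving out each array moved the median difference of the members between -0.13 and 0.08 for E2f TKO against control and between -0.48 and 0.01 for the interaction, so those medians have no settled sign. For QKO against control the count of 3 members fell to 1 with only genes above the median level, with a trended robust eBayes, with array weights and with Xist as a covariate, and to 0 once Trim30a, Trim30d and Trim12a were left out, an alternative chosen after seeing the data. For QKO against Myc KO the count of 2 fell to 1 under the level filter, the trended robust eBayes, the Xist covariate and when E2f TKO 2 and 5 were both left out, and to 0 without the Trim genes. For Myc KO against E2f TKO the count of 4 fell to 2 with only the compared groups in the fit and to 2 without the Trim genes. Counts of 0 became 1 in Myc KO against control with only the compared groups and with array weights (Irf1), and 1 in QKO against E2f TKO with only the compared groups (Bst2). Trim12a in QKO against control missed the threshold after quantile normalization (1.75) and after median centring (1.74), and Irf1 in Myc KO against E2f TKO after median centring (0.28). Leaving out each array in turn gave counts of 0 to 2 for E2f TKO against control, 0 to 1 for Myc KO against control, 0 to 3 for QKO against control, 0 to 1 for QKO against E2f TKO, 0 to 3 for QKO against Myc KO and 2 to 11 for Myc KO against E2f TKO. The causes were not tested. With the replicate number as a block the count for QKO against Myc KO was 1, and Trim12a was lost against control (1.84) and against Myc KO (2.19), as was Irf1 in Myc KO against E2f TKO (0.35); the block rests on numbers that were not shown to pair arrays. Among single genes, 527 values kept their side of the threshold, 61 were lost and 8 were gained.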
